A study of Mus musculus with 12 samples.

Results

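The CCAAT/enhancer-binding proteins (C/EBPs) and PPARG were followed in mouse embryonic fibroblasts. Of 5 named genes, CEBPA, CEBPB, CEBPD, CEBPG and PPARG, 4 were found by symbol among the 11481 genes of the deposited tables. Members were selected on their presence in these tables, which rests on measured CPM, and the family was picked with earlier results of these data known. All 4 passed the minimum mean of 1 CPM used for testing, as every listed gene did. CEBPA, CEBPB and CEBPG were in both tables, PPARG was in the mock table only, and CEBPD was not analysed here. The cells came from a hybrid 129/B6 background and were wild type (WT, lincRNA-p21+/+) or knockout (KO, lincRNA-p21-/-) for a long noncoding RNA that p53 induces. Each genotype was either mock treated or given doxorubicin, a DNA-damaging anthracycline, for 24 hours at a dose the labels state as 0.5 mM, a unit that is in doubt because such treatments usually use micromolar doses. Each genotype and treatment combination, 4 in all, held 3 libraries labelled as biological triplicates. The labels do not say whether a replicate number stands for an embryo, a litter or a day, and p-values measure the spread between these libraries only.

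C/EBPs are basic leucine zipper transcription factors that bind DNA as dimers and are active in fat, liver, myeloid cells and stressed fibroblasts. In adipogenesis, CEBPB and CEBPD act early and switch on CEBPA and the nuclear receptor gene PPARG, which then sustain each other. C/EBPα restrains proliferation in differentiating cells, C/EBPβ takes part in inflammatory and senescence programmes, and C/EBPγ lacks an activation domain and pairs with other family members and with ATF4.

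Which genes could be measured was set at least in part by the values themselves. Other rules of selection, such as by chromosome, were not checked. Every listed gene exceeded 2 CPM, the read count of a gene scaled to a common library total, in all WT libraries of its table. In the mock table, the lowest WT value was 2.14 CPM for CEBPA and 2.79 CPM for PPARG, so both lay just inside that limit, whereas it was 27.2 CPM for CEBPB and 56.7 CPM for CEBPG. The read totals behind the CPM values, worked back from those values, ran from 14327048 to 20511907. The 2.14 CPM of CEBPA stood for 37 reads. Fibroblast markers were abundant, with 13 of 15 listed genes measured and a summed level of 57492 to 79929 CPM in mock libraries and 35690 to 47059 CPM after doxorubicin. No value of lincRNA-p21 itself was analysed here, and the knockout labels were taken as given. In bulk RNA, fewer cells of a type and less RNA per cell cannot be told apart.

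CEBPA and CEBPG are neighbours on chromosome 7 and moved in opposite directions after doxorubicin, and CEBPB lies on chromosome 2. Their promoters are shown because these 3 genes carry the doxorubicin results, from 250 bases before to 50 after the RefSeq start (GRCm38.p6, 5′ to 3′ along the gene). Capitals mark matches on either strand to the TATA box TATAAA, to the CCAAT box and to the GC box GGGCGG. The windows are chr7:35119043-35119342 (+) for CEBPA, chr7:35056517-35056816 (-) for CEBPG and chr2:167688665-167688964 (+) for CEBPB.
CEBPA: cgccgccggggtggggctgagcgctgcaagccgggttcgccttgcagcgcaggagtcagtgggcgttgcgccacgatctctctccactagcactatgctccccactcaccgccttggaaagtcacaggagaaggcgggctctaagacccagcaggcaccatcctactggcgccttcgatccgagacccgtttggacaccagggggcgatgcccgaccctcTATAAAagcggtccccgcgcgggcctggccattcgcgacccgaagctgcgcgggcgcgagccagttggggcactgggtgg
CEBPG: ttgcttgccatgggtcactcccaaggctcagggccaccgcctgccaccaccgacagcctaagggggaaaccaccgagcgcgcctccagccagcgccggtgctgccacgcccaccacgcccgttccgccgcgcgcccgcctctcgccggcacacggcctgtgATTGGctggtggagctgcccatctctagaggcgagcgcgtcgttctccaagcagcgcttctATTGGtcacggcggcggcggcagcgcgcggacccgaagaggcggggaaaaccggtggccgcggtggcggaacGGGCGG
CEBPB: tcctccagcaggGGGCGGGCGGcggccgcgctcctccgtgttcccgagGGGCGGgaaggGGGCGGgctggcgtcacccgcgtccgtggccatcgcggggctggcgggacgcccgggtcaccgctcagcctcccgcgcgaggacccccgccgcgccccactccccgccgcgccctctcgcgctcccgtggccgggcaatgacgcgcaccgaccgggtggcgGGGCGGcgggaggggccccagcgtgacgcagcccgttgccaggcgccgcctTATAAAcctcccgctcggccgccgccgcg
The CEBPA window held 1 TATAAA, starting at base -30 from the start site, and no match to the other motifs searched. The CEBPG window held 2 CCAAT boxes, both on the opposite strand, and 1 GGGCGG. The CEBPB window held 5 GGGCGG, 2 of them overlapping, and 1 TATAAA after the start site. Of 32851 promoter windows of this length, 13.6% held the TATA box, 37.4% the CCAAT box and 35.7% the GC box. The C/EBP motif TTGCNNAA (10.8% of windows), CACGTG (7.15%), TGACGTCA (1.79%), TGATGNAAT (0.965%) and the p53 half-site (8.36%) had no match in these 3 windows, which speaks only of these letters in these bases.

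CEBPA had the largest doxorubicin difference of the members. In WT mock cells it was at 9.21, 5.56 and 2.14 CPM in replicates 1, 2 and 3, and in KO mock cells at 13.0, 8.64 and 3.44 CPM. After doxorubicin it was at 54.7, 86.9 and 107 CPM in WT and at 28.4, 44.7 and 56.0 CPM in KO. No mock library reached any doxorubicin library. A complete separation in this direction held for 29.4% of genes in WT and 27.1% in KO. Within each treatment the KO and WT ranges overlapped for every member, whereas they did not overlap for 9.98% of genes in mock and 16.3% after doxorubicin. Replicate 1 was the highest of its group in both mock groups and the lowest in both doxorubicin groups.

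**Figure D1:**
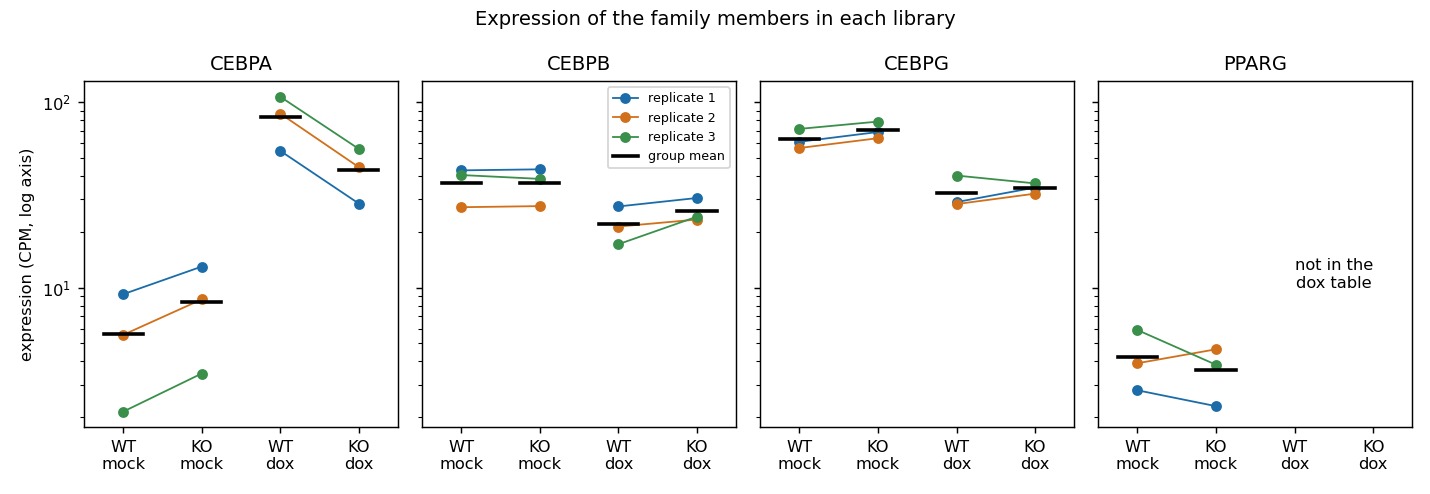
CPM of each member (log axis) in each library of the 4 groups. Points are libraries coloured by replicate number, thin lines join the same-numbered WT and KO libraries of a treatment, and black bars are group means. CEBPA lies between 2.14 and 13.0 CPM in mock and between 28.4 and 107 CPM after doxorubicin, while CEBPB and CEBPG lie lower after doxorubicin on average.

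Doxorubicin raised CEBPA in both genotypes. The mean went from 5.64 ± 3.54 to 82.9 ± 26.4 CPM in WT (SD, n = 3), a 14.7-fold ratio of means, and from 8.36 ± 4.78 to 43.0 ± 13.9 CPM in KO, a 5.15-fold ratio. On the log2(CPM + 1) scale, on which the pseudocount shrinks the changes of low genes, the differences were 3.77 (SE 0.49, limma adjusted p = 0.000151) and 2.33 (SE 0.49, adjusted p = 0.00411). In WT, 47.3% of 10292 genes were called in either direction, 25.9% as higher, and in KO 34.5% and 19.9%. Among those genes the CEBPA difference ranked number 22 from the highest in WT and number 72 in KO. By replicate number, the doxorubicin level was 5.94, 15.6 and 50.03 times the mock level in WT and 2.19, 5.17 and 16.3 times in KO, with replicate 1 lowest and replicate 3 highest in both genotypes.

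The KO to WT ratio of CEBPA, in contrast, hardly varied between same-numbered libraries. After doxorubicin the KO level was 0.519, 0.514 and 0.523 of the WT level in pairs 1, 2 and 3. In mock cells it was 1.41, 1.55 and 1.61 times the WT level. CEBPA was thus higher in KO in 3 of 3 mock pairs and lower in KO in 3 of 3 doxorubicin pairs. By mean log2 difference, 7094 of all 10648 genes were higher in KO in mock, and 6034 of 11125 after doxorubicin. How many genes had all 3 pairs in 1 direction was not counted.

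**Figure D2:**
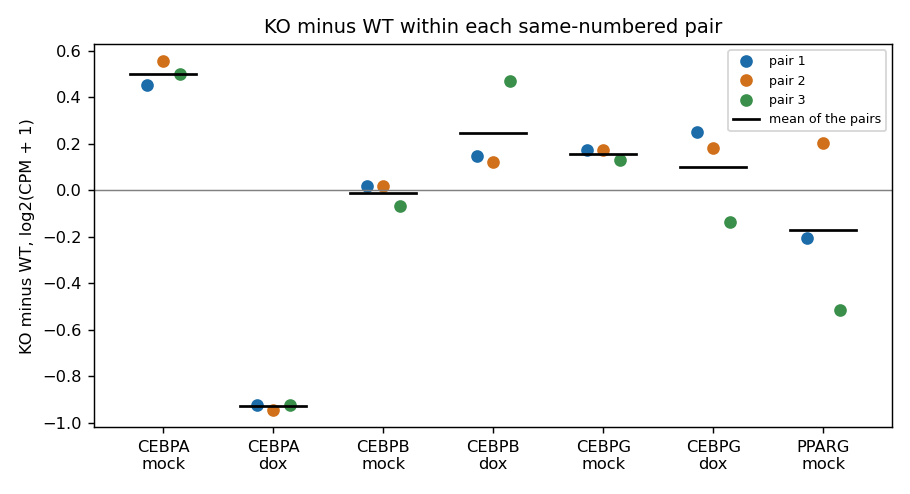
KO minus WT on the log2(CPM + 1) scale for each same-numbered pair, by member and treatment; points are pairs and black bars their means. The 3 CEBPA points lie close together above 0 in mock and below 0 after doxorubicin, and the points of PPARG lie on both sides of 0.

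Without the replicate number in the model, KO against WT was not called for CEBPA in either treatment, nor for any other gene. The mock difference was 0.50 (SE 0.56, adjusted p = 0.978) and the doxorubicin difference -0.93 (SE 0.31, adjusted p = 0.443). At an unadjusted p under 0.05, 440 genes passed in mock and 1246 after doxorubicin. With the number as a block, CEBPA fell in KO after doxorubicin (SE 0.08, adjusted p = 0.00399), as 1 of 3 measured members called, against 25.3% of 11125 genes called in either direction and 13.6% as lower. The call was lost when the block was fitted over all 12 libraries (adjusted p = 0.190). In mock it did not pass with the block (SE 0.10, adjusted p = 0.0825), where 0.92% of 10648 genes were called and 0 of 4 members. That CEBPA was lower in KO after doxorubicin was known when the family was chosen, so its p and that of the interaction are no independent support.

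The genotype difference of CEBPA changed sign between treatments, with an interaction of -1.43 on the log2 scale. It was not called with groups alone (SE 0.69, limma adjusted p = 0.922) or with 1 block per replicate number over all 12 libraries (SE 0.68, adjusted p = 0.342). No gene was called in either fit, and 468 and 1610 of 10292 had an unadjusted p under 0.05. With the WT and KO libraries of each treatment and number as 6 separate pairs, a fit added after these values were seen, the interaction had an SE of 0.11 and an adjusted p of 0.00338. That fit called 812 genes, 7.89% of those tested. The same fit gave 0.26 for CEBPB (95% interval -0.03 to 0.54, adjusted p = 0.227) and -0.06 for CEBPG (-0.33 to 0.21, adjusted p = 0.780).

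Markers of myeloid cells, a lineage that expresses CEBPA, had the same order of replicates as CEBPA within each mock group. In pair 3, however, CEBPA was higher in KO and both markers below were lower in KO. Of 17 listed markers 2 were measured in mock, and their summed level ran from 9.66 to 51.1 CPM in WT and from 8.34 to 83.4 CPM in KO. CD68, a lysosomal protein of macrophages, was at 29.2, 8.87 and 2.84 CPM in WT replicates 1, 2 and 3 and at 58.3, 14.9 and 2.42 CPM in KO. CD53, a leukocyte tetraspanin gene, was at 21.8, 7.92 and 6.83 CPM in WT and at 25.2, 9.60 and 5.92 CPM in KO. In every mock group replicate 1 was highest for both markers and for CEBPA. A falling order over replicates 1, 2 and 3 was not particular to myeloid markers. PLIN2 and LPL, which are not on that list, had it in both mock groups, and DGAT2 and PPARG did not. How many of all genes had it was not counted. After doxorubicin CD68 was again highest in replicate 1, at 126, 65.8 and 49.2 CPM in WT and 112, 63.7 and 45.4 CPM in KO, where CEBPA was lowest. CD14, the second myeloid marker measured there, stood at 31.0, 38.7 and 32.6 CPM in the WT replicates, and the KO replicates had 18.6, 28.0 and 23.7 CPM. The defining leukocyte markers PTPRC and CSF1R were not analysed here, and the part of myeloid cells in the CEBPA values was not tested.

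Of 38 listed adipocyte genes, 23 were measured in mock, with a summed level of 2523 to 3534 CPM, and 25 after doxorubicin. Genes that many cell types use were abundant, such as the lipid droplet gene PLIN2, with WT means of 261 ± 101 CPM (mock) and 835 ± 372 CPM (doxorubicin), and LPL was at 42.1 ± 18.6 CPM in WT mock. Markers more restricted to fat cells were low. FABP4, a fatty acid carrier of fat cells, was at 2.31 to 4.55 CPM over the mock libraries and 4.93 to 13.2 CPM after doxorubicin. The insulin-responsive glucose transporter gene SLC2A4 was measured after doxorubicin only, at 2.06 to 4.97 CPM in WT and 0.838 to 1.68 CPM in KO. ADIPOQ, PLIN1, CIDEC, LEP, RETN and CFD were not analysed here. The part of fat-like cells in the CEBPA values was not tested.

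Markers of other lineages also moved with doxorubicin beside CEBPA. Of 4 measured epithelial markers 2 rose and 1 fell in WT, and 2 rose and 0 fell in KO, and the summed level of the list was 88.1 to 202 CPM over the mock libraries and, with CLDN4 also measured, 158 to 367 CPM after doxorubicin. ESRP2, an epithelial splicing factor gene, rose by 3.41 in WT and 2.46 in KO on the log2 scale, and like CEBPA it was lower in KO after doxorubicin (71.4 ± 11.6 CPM in WT, 31.6 ± 6.89 CPM in KO, limma adjusted p = 0.0044 with the block). After doxorubicin all 5 epithelial, all 4 endothelial and both myeloid markers were below WT in KO by mean log2 difference. Of all 11125 genes, 6034 were above WT there. CLDN4 was listed through its WT values of 2.56 to 13.7 CPM, with KO at 1.38 to 9.99 CPM, so the 2 CPM limit on WT favoured its direction. Of the markers of these types and of fibroblasts, KRT19, CD14, ENG, THY1, POSTN and S100A4 also fell in KO with the block (limma adjusted p = 0.0387, 0.0146, 0.0103, 0.0125, 0.0464 and 0.0044). COL5A1 rose (adjusted p = 0.0307). In that fit 13.6% of all genes were called as lower and 11.8% as higher. ENG and S100A4 were lower in KO in mock as well (log2 -0.57 and -0.50, limma adjusted p = 0.0362 and 0.0447 with the block), where 0.92% of genes were called. The endothelial receptor gene KDR rose with doxorubicin by 2.61 and 2.47, as 1 of 3 measured endothelial markers. Of 13 fibroblast markers 6 fell and 0 rose in each genotype. Among all genes, doxorubicin calls were 25.9% higher and 21.4% lower in WT, and 19.9% and 14.6% in KO. The part of these cell types in the CEBPA values was not tested.

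CEBPB, an early adipogenic and inflammatory factor, fell after doxorubicin in WT. It was at 42.9, 27.2 and 40.5 CPM in WT mock replicates 1, 2 and 3 and at 27.4, 21.4 and 17.1 CPM in WT doxorubicin, and the groups overlapped by a narrow margin. In KO it was at 43.5, 27.5 and 38.6 CPM in mock and at 30.5, 23.3 and 24.1 CPM after doxorubicin. CEBPB fell in WT by 0.72 on the log2 scale (SE 0.23, limma adjusted p = 0.0242). It no longer passed without WT mock replicate 1, WT mock replicate 3, WT doxorubicin replicate 2 or WT doxorubicin replicate 3 (adjusted p = 0.0895, 0.0779, 0.0543 and 0.0966). In KO the difference was -0.46 (SE 0.23, adjusted p = 0.142) and it passed with the block (adjusted p = 0.0233), where 53.7% of genes were called. That blocked call was lost without replicate 1 (adjusted p = 0.139) or replicate 3 (adjusted p = 0.0543). All 6 same-numbered comparisons were lower after doxorubicin, at 0.423 to 0.846 of the mock level. Whether the fall differed between genotypes was the interaction given above, which did not pass.

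Between genotypes, CEBPB was nearly level in mock, with WT at 36.9 ± 8.49 CPM and KO at 36.5 ± 8.18 CPM. The log2 difference was -0.01, with a 95% interval from -0.57 to 0.55 without the block and from -0.16 to 0.14 with it. After doxorubicin the CEBPB means were 22.0 ± 5.16 CPM (WT) and 26.0 ± 3.91 CPM (KO), and all 3 pairs were higher in KO, by ratios of 1.11, 1.09 and 1.41. That difference of 0.25 did not pass (SE 0.21, adjusted p = 0.596, and adjusted p = 0.150 with the block).

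CEBPG fell after doxorubicin in both genotypes by nearly the same amount. In WT it was at 61.2, 56.7 and 71.9 CPM in mock and 28.9, 28.2 and 40.2 CPM after doxorubicin, a difference of -0.95 (SE 0.15, adjusted p = 0.000477). In KO it was at 69.1, 64.0 and 78.7 CPM in mock and 34.7, 32.1 and 36.5 CPM after doxorubicin, a difference of -1.01 (SE 0.15, adjusted p = 0.00065). Every mock library lay above every doxorubicin library of its genotype, as for 25.3% of genes in WT and 21.5% in KO in that direction. The doxorubicin level was 0.464 to 0.560 of the mock level over all 6 same-numbered comparisons, a far narrower range than that of CEBPA. In all, 3 of 3 measured members were called in WT and 2 of 3 in KO, against the 47.3 and 34.5% of all genes given above; as lower alone, 21.4% of genes were called in WT and 14.6% in KO.

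CEBPG was slightly higher in KO in all 3 mock pairs, by ratios of 1.13, 1.13 and 1.10, and the difference of 0.16 did not pass (SE 0.12, adjusted p = 0.978, and adjusted p = 0.157 with the block). Most genes, 7094 of 10648, had a mean log2 difference above 0 in mock. After doxorubicin the ratios were 1.20, 1.14 and 0.907, with a difference of 0.10 (SE 0.18, adjusted p = 0.797).

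PPARG, the receptor that drives fat cell differentiation, was low in mock cells. It was at 2.79, 3.91 and 5.90 CPM in WT replicates 1, 2 and 3, or 40, 78 and 102 reads, and at 2.29, 4.65 and 3.83 CPM in KO. The groups overlapped and the pairs disagreed in direction, with KO to WT ratios of 0.821, 1.19 and 0.650. The log2 difference was -0.17 (SE 0.30, adjusted p = 0.988), with a 95% interval from -0.88 to 0.54. Unlike CEBPA, PPARG was lowest in replicate 1 of both mock groups. PPARG after doxorubicin was not analysed here.

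Set per kilobase of exon in the GENCODE M21 annotation, the order of the levels changed with treatment. In WT mock cells CEBPB was highest, at 24.5 ± 5.65 CPM per kb, followed by CEBPG at 11.3 ± 1.39, CEBPA at 2.14 ± 1.34 and PPARG at 1.42 ± 0.53 CPM per kb. The ranges of CEBPA and PPARG overlapped, and those of the other neighbours did not. In WT doxorubicin cells CEBPA led at 31.4 ± 10.0 CPM per kb, above CEBPB at 14.6 ± 3.43 and CEBPG at 5.78 ± 1.20 CPM per kb. In KO doxorubicin cells CEBPA at 16.3 ± 5.27 and CEBPB at 17.3 ± 2.60 CPM per kb overlapped. The gene models that the authors counted over may differ from this annotation, which would move the levels of all libraries of a gene alike. Other models could therefore change the order of the genes and the shares below, but not the ratios between libraries of 1 gene.

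The share of CEBPA in the summed per-kilobase level of CEBPA, CEBPB and CEBPG was 2.00 to 8.14% in WT mock and 3.18 to 10.7% in KO mock libraries. After doxorubicin it was 47.0 to 68.6% in WT and 29.0 to 48.5% in KO. The sum itself moved less, at 37.9 ± 6.73 CPM per kb in WT mock, 40.0 ± 6.64 in KO mock, 51.8 ± 7.54 in WT doxorubicin and 39.7 ± 3.57 in KO doxorubicin. CEBPA was above CEBPB per kilobase in 3 of 3 WT doxorubicin libraries, at 1.14 to 3.56 times its level, and at 0.532 to 1.32 times in KO.

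**Figure D3:**
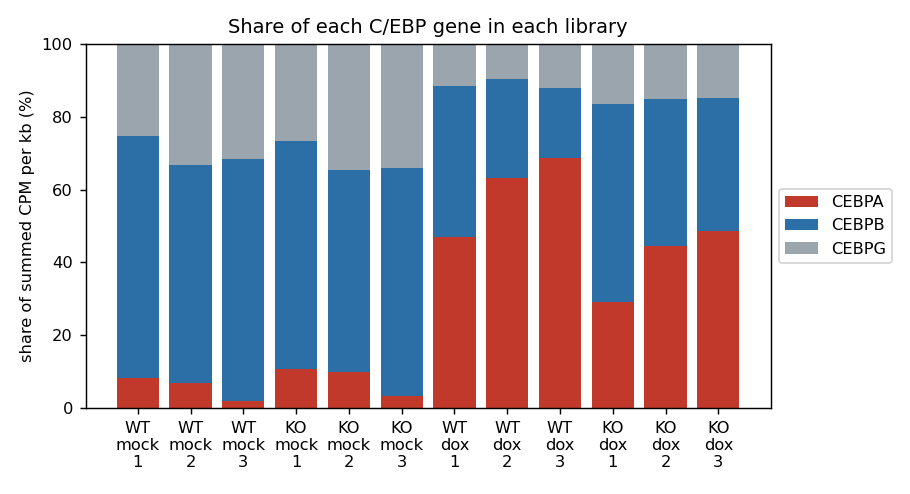
Share of CEBPA, CEBPB and CEBPG in their summed CPM per kb of exon (%), stacked to 100, in each of the 12 libraries by group and replicate number. The CEBPA share is at most 10.7% in mock libraries and at least 29.0% after doxorubicin.

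Relatives and partners of the family moved both ways with doxorubicin. Of 13 measured genes of that list, 5 rose and 4 fell in WT, and 3 rose and 3 fell in KO, with median differences of -0.26 and -0.14 against 0.01 and 0.04 over all genes. With the block 5 rose and 5 fell in each genotype. The shares of all genes called were 47.3% in WT and 34.5% in KO, and 63.7% and 53.7% with the block. TRIB3, a pseudokinase gene induced by ATF4, fell in WT, where 83.9 ± 26.4 CPM in mock became 5.07 ± 1.52 CPM (log2 -3.78, adjusted p = 1.93e-05), and in KO, where 90.4 ± 33.8 CPM became 5.97 ± 1.23 CPM (log2 -3.65). ATF4, a stress transcription factor that pairs with C/EBPγ, fell by 1.19 on the log2 scale in WT and fell by 1.03 in KO. ATF5, its close relative, had differences of -2.09 and -1.97. TRIB1, whose product directs C/EBPα to degradation, rose by 0.55 in WT (adjusted p = 0.0337) and 0.74 in KO (adjusted p = 0.0116). TRIB2, which acts on C/EBPα likewise, fell by 1.43 in WT (adjusted p = 0.00551), while in KO the difference was -0.94 (adjusted p = 0.0532, and 0.00109 with the block). DDIT3, the stress-induced C/EBP relative CHOP, did not pass in either genotype, at 96.2 ± 35.6 and 68.9 ± 11.7 CPM in WT mock and doxorubicin and 87.8 ± 38.1 and 58.7 ± 5.47 CPM in KO. The zipper factor genes TEF and NFIL3 rose by 0.78 and 0.61 in WT and by 0.55 and 0.48 in KO. CEBPZ, a CCAAT-binding factor gene outside the zipper family, rose by 0.47 in WT (adjusted p = 0.0190), and in KO the difference was 0.35 (adjusted p = 0.0770, and 0.00285 with the block).

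**Figure D4:**
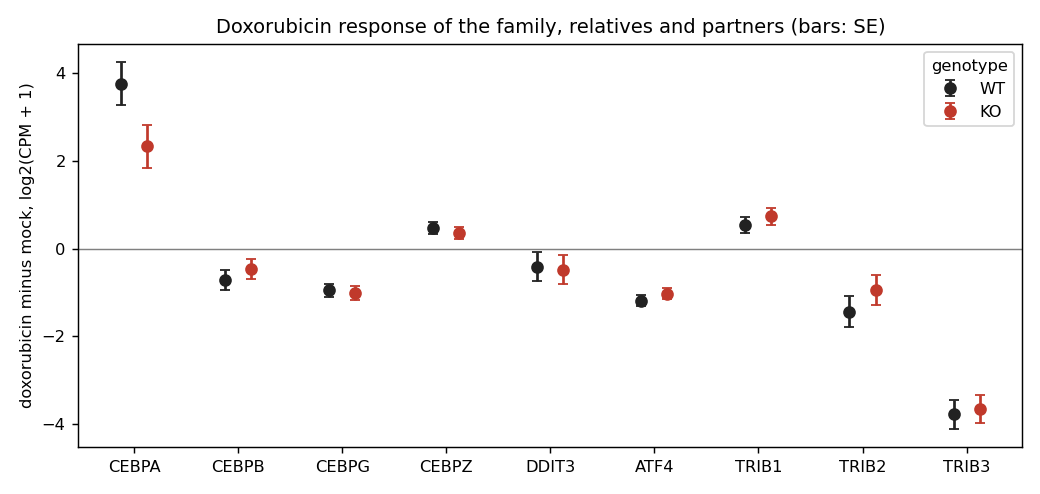
Doxorubicin minus mock on the log2(CPM + 1) scale in WT (black) and KO (red) for 3 members, CEBPZ, DDIT3, ATF4 and the TRIB genes. Points are limma estimates and bars their SE. CEBPA has the highest difference of these genes in both genotypes and TRIB3 the lowest.

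Between genotypes, 0 of the 13 relatives and partners were called in mock by limma, with or without the block. After doxorubicin 1 rose in KO with the block and 0 without it. That gene was TRIB1, with KO at 43.7 ± 5.41 CPM and WT at 33.7 ± 4.67 CPM, higher in KO in 3 of 3 pairs by ratios of 1.30, 1.38 and 1.22 (log2 0.37, adjusted p = 0.0281 with the block).

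Of the receptor partners and coregulators of PPARG, 12 were measured in both treatments. Of these, 6 rose and 2 fell with doxorubicin in WT, and 3 rose and 2 fell in KO, where 47.3% and 34.5% of all genes were called. PPARD, the relative of PPARG that is broadly expressed, rose from 62.4 ± 6.37 to 126 ± 24.4 CPM in WT and from 68.2 ± 11.4 to 112 ± 19.6 CPM in KO. The coactivator gene NCOA1 rose, with log2 differences of 1.55 (WT) and 0.84 (KO). NRIP1, a nuclear receptor corepressor gene, rose by 1.05 and 0.82. TBL1XR1 and NCOR1, which belong to a corepressor complex, fell, with differences of -1.22 and -0.48 in WT and -0.75 and -0.33 in KO. KO against WT after doxorubicin, 4 of 13 were higher and 2 lower with the block, where 11.8% and 13.6% of all genes were called in those directions. NCOA1 was lower, at 28.3 ± 6.65 CPM against 43.9 ± 8.64 CPM in WT, as was RXRG, a low-level partner of PPARG, at 1.35 ± 0.68 against 3.33 ± 0.09 CPM. RXRG was listed through its WT values, with KO at 0.768 to 2.10 CPM, so the 2 CPM limit on WT favoured its direction. TBL1XR1, PRDM16 and NCOR1 were the higher ones with the largest differences, at log2 0.80, 0.61 and 0.31.

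Upstream regulators of adipogenesis did not move one way. Of 29 measured, 9 rose and 7 fell with doxorubicin in WT, and 7 rose and 4 fell in KO, beside 47.3% and 34.5% of all genes called. KLF5, a zinc finger factor that acts with CEBPB on the PPARG promoter, rose from 5.57 ± 0.66 to 40.6 ± 11.4 CPM in WT and from 7.52 ± 4.07 to 37.2 ± 16.97 CPM in KO. LPIN1, a phosphatidate phosphatase gene of lipid synthesis, rose by 2.13 and 1.84, and INSIG1, a brake on sterol synthesis, had differences of -2.47 and -2.31 on the log2 scale. With the block these counts were 12 and 9 in WT and 8 and 8 in KO, beside 63.7% and 53.7% of all genes called. Between genotypes after doxorubicin, 7 of 32 were higher and 2 lower in KO with the block, a share near the 25.3% of all genes called. FOXC2 and STAT5A were higher by log2 1.07 and 1.08, and FOXA2 and ZFP423 lower, with differences of -1.08 and -0.65. FOXA2 was low, at 3.55 ± 2.77 CPM in KO against 7.72 ± 3.85 CPM in WT, and the 2 CPM limit held for WT only.

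Genes known as adipocyte targets of C/EBPα and PPARG split as well. Of 23 measured, 7 rose and 5 fell with doxorubicin in WT, and 3 rose and 7 fell in KO. With the block these counts were 8 and 7 in WT and 7 and 8 in KO. Calls over all genes made up 47.3% in WT and 34.5% in KO, and 63.7% and 53.7% with the block. DGAT2, which makes triglyceride, was at 3.77, 3.71 and 4.11 CPM in WT mock replicates 1, 2 and 3 and at 20.5, 120 and 139 CPM in WT doxorubicin. In KO it was at 2.74, 3.89 and 6.20 CPM in mock and 5.12, 27.8 and 52.0 CPM after doxorubicin. Like CEBPA, DGAT2 was lowest in replicate 1 after doxorubicin in both genotypes. PDK4, a brake on glucose oxidation, rose, with log2 differences of 3.27 in WT and 2.58 in KO. The lipogenic genes ACACA and ELOVL6 fell, with differences of -1.43 and -1.46 in WT and -1.32 and -1.67 in KO.

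KO against WT after doxorubicin, 17 of 25 adipocyte targets were below WT and 8 above, where 6034 of all 11125 genes were above, with a median of -0.06 against 0.03 over all genes. With the block 2 rose and 5 fell, a share near the 25.3% of all genes called in that fit, and 0 were called without it. DGAT2 was lower in KO, at 28.3 ± 23.5 CPM against 93.0 ± 63.6 CPM (log2 -1.76, blocked adjusted p = 0.00392), as were the lipoprotein lipase gene LPL, at 15.6 ± 6.90 against 39.8 ± 28.1 CPM, and SLC2A4, at 1.18 ± 0.44 against 3.501 ± 1.46 CPM. LPL was already lower in KO in every mock pair, by ratios of 0.453, 0.472 and 0.920, though not called there. SLC2A4 was listed through WT alone, with KO at 0.838 to 1.68 CPM, so the 2 CPM limit on WT favoured its direction. The 2 that rose were APOE, from 14.0 ± 10.3 to 155 ± 168 CPM, and the desaturase gene SCD2, from 616 ± 241 to 867 ± 391 CPM. In mock cells 0 of 23 were called by limma with or without the block, with a median of 0.07 against 0.06 over all genes.

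Inflammatory and acute-phase genes that C/EBPs are known to activate were measured for 13 of 27 entries in both treatments. In WT 3 rose and 1 fell with doxorubicin, and in KO 1 rose and 1 fell. With the block 4 rose and 2 fell in WT, and 4 rose and 3 fell in KO. Without the block 47.3% of all genes were called in WT and 34.5% in KO, and with it 63.7% and 53.7%. CCL2, a monocyte chemokine gene, rose from 79.1 ± 18.8 to 209 ± 60.6 CPM in WT, and IL6 from 3.48 ± 0.62 to 9.59 ± 3.47 CPM in WT and from 2.89 ± 0.98 to 5.67 ± 0.79 CPM in KO. CXCL12, a stromal chemokine gene, fell, with differences of -2.67 in WT and -2.20 in KO. After doxorubicin 4 of 14 were lower and 1 higher in KO with the block, and 0 without it, where 13.6% of all genes were called as lower and 11.8% as higher with the block. The complement gene C3 was lower, at 5.83 ± 4.97 CPM against 20.5 ± 14.4 CPM in WT, as was CCL2, at 116 ± 12.9 against 209 ± 60.6 CPM. The single higher gene was CXCL12, at 65.0 ± 7.87 and 93.4 ± 16.1 CPM.

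The genes around CEBPA on chromosome 7 did not share its response. In the order of the RefSeq annotation, the nearest genes measured in both tables were LSM14A, KCTD15 and PEPD beyond CEBPG, and LRP3, GPATCH1 and FAAP24 (C230052I12RIK in the tables) on the side of CEBPA. With doxorubicin in WT, LSM14A and KCTD15 fell (log2 -0.63 and -1.41), and the other 4 were not called. In KO, LSM14A, KCTD15 and LRP3, a lipoprotein receptor family gene, fell (log2 -0.51, -1.51 and -1.12). None of the 6 was higher with an adjusted p under 0.05 in either genotype. KO against WT, LRP3 had a difference of -0.86 after doxorubicin (SE 0.38, adjusted p = 0.443, and 0.0577 with the block), in the same direction as CEBPA but past no threshold.

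**Figure D5:**
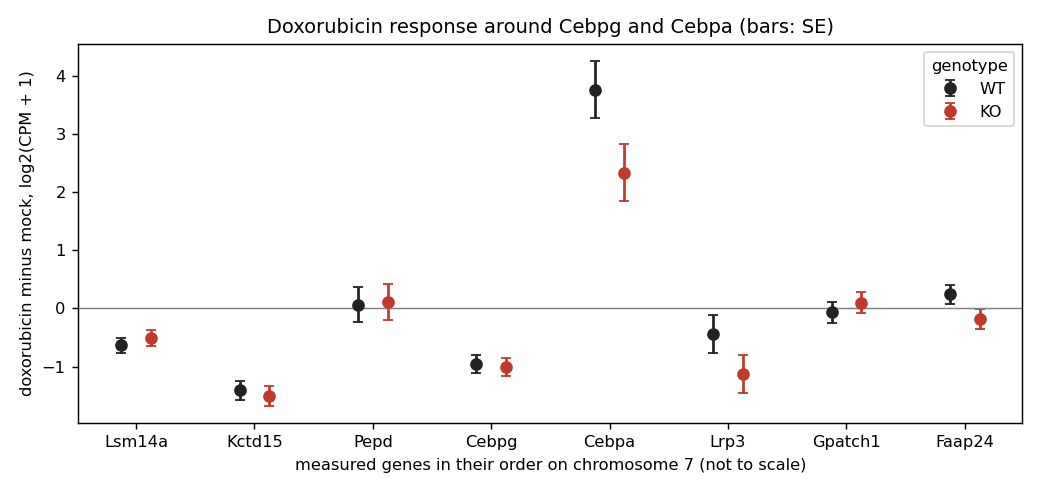
Doxorubicin minus mock on the log2(CPM + 1) scale in WT (black) and KO (red) for CEBPG, CEBPA and the nearest 3 measured genes on each side, in chromosomal order and not to scale; bars are SE. CEBPA alone of these 8 genes lies well above 0, at 3.77 and 2.33.

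The profiles most like each member were found by the root mean square difference between log2 profiles centred on their means. For CEBPA over 12 libraries the nearest of 10292 genes were PLA2G16, a phospholipase gene of fat tissue (0.28 log2 units), SLC43A2, an amino acid transporter gene (0.40), and TRP53I11, a p53-inducible gene (0.43). PLA2G16 was at 16.99 ± 10.1 CPM in WT mock, 16.9 ± 6.73 in KO mock, 156 ± 29.6 in WT doxorubicin and 85.2 ± 26.0 in KO doxorubicin. Its KO to WT ratios after doxorubicin were 0.454, 0.617 and 0.545, all below 1 as for CEBPA, while in mock they lay on both sides of 1, at 0.786, 1.38 and 1.04. SLC43A2 was at 8.19 ± 4.69, 11.6 ± 6.29, 71.4 ± 11.9 and 44.4 ± 6.07 CPM in the same order of groups. Its KO to WT ratios were above 1 in every mock pair, at 1.39, 1.45 and 1.49. They were below 1 in every doxorubicin pair, at 0.812, 0.608 and 0.492, a change of sign as for CEBPA. TRP53I11 had ratios of 0.958, 0.788 and 1.27 in mock and 0.530, 0.712 and 0.708 after doxorubicin. These 3 genes were picked for their likeness to CEBPA over these same libraries. Ratios like those of CEBPA therefore follow from the pick and are no separate result. CEBPB was nearest to 2700081O15RIK, 2310079N02RIK and the nicolin gene NICN1 (0.13 to 0.14), and CEBPG to the guanylate kinase gene GUK1 (0.12), 1700037H04RIK and E130303B06RIK. PPARG, over the 6 mock libraries, was nearest to SLCO3A1, CHST1 and MET (0.11 to 0.12). SLCO3A1 encodes an organic anion transporter, CHST1 a sulfotransferase and MET the hepatocyte growth factor receptor. The distance depends on how much a profile varies, so distances are not compared between members.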

How the data were processed

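RNA-seq expression was analysed in 12 libraries of 4 groups of 3. CPM per gene was deposited by the authors in 2 tables, 10648 genes in mock and 11125 after doxorubicin, with 10292 in both. Tools listed without roles in the submitters' processing notes are TopHat2 2.0.6, HTSeq and edgeR, with NCBIM37 as the assembly. Whether counting used strand is not given in the sources used here. In every library 100% of CPM values were a whole number of reads (within 0.001) of a common total, so levels were set across tables. No count test was run, so 2 count-model alternatives listed at the outset were left out.

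The main fit was limma 3.58.1 in R 4.3.3 (lmFit, eBayes with trend) on log2(CPM + 1) over all genes with a mean of at least 1 CPM, 2-sided, called at a Benjamini-Hochberg adjusted p under 0.05. KO and WT were compared within a table, and doxorubicin against mock and the interaction over all 12 libraries. Deviations of same-numbered WT and KO libraries from their group means correlated across genes at 0.669 to 0.855 in both tables. Those of differently numbered WT and KO libraries correlated at -0.728 to -0.0668. Same-numbered libraries of a genotype correlated at 0.394 to 0.728 across treatments, where differently numbered ones were not compared. The numbers were therefore taken to pair the samples, from the data and not from a statement in the labels. The blocked fit adds the number as a fixed effect. The script was tested on simulated data.

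The members, gene lists and tests were chosen with earlier results of these data known. Named genes were the members, the 3 nearest profiles to each, the 3 measured neighbours on each side of CEBPG and CEBPA, 5 partners (DDIT3, ATF4, TRIB1 to TRIB3), and up to 3 called genes each way with the largest difference per list and comparison; CEBPZ, CD53 and further marker values were named after they were seen. Symbols are in capitals, as in the tables. Promoters are from RefSeq (GRCm38.p6), and 3 of 3 genes shown matched; names, order and exon lengths came from annotations of GRCm38, another build than the submitters', so no other coordinates are given.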

Additional observations from a re-analysis of the deposited data

Results flagged for a closer look

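The KO minus WT difference of CEBPA had opposite signs in the 2 treatments in every same-numbered pair, with an interaction of -1.43 on the log2 scale. The 3 mock pairs were at 0.45, 0.55 and 0.50 and the 3 doxorubicin pairs at -0.92, -0.94 and -0.92. The number of other genes with such a change of sign in every pair was not counted. The test of the difference itself passed only in the fit with 6 pairs added after the values were seen (limma adjusted p = 0.00338), and not with groups alone or with 1 block per number (adjusted p = 0.922 and 0.342). Groups of 3 libraries are too small for a test of single outlying libraries.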

How the results depend on the processing

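Of the alternatives for the members' differences, 340 kept direction and side of the threshold. Another 13 passed it where the main fit did not, 4 lost the call and 10 changed sign. The cause of such changes was not tested. Part of the 340 was fixed in advance. Dropping the minimum mean of 1 CPM changed no fit, since every listed gene passed it. Leaving out a library of 1 genotype cannot move the doxorubicin estimate of the other, only its p. The replicate block raised the genes called from 0 to 98 for KO against WT in mock, from 0 to 2820 after doxorubicin and from 3552 to 5524 for doxorubicin in KO. Those 3 counts were 112, 2826 and 5511 with the block and a pseudocount of 0.1 CPM, and 104, 2602 and 5645 with the block and quantile normalization. KO against WT called 5 genes in mock and 2 after doxorubicin with all 12 libraries in the fit, 32 and 1438 when the block was added there, and 1 after doxorubicin with a pseudocount of 0.1 CPM. With the block and 1 pair left out, 0 to 2438 genes were called in mock (4 without replicate 1) and 692 to 2590 after doxorubicin (1560 without replicate 3). Members called after doxorubicin went from 0 to 1, CEBPA, under the block alone, with either added setting and without any 1 pair, but not with all 12 libraries and the block. In mock 1 member, CEBPA, was called only with the block and without replicate 3. The interaction called 812 genes and 1 member, CEBPA, with pairs within each treatment as blocks.

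Leaving out single libraries, the CEBPA difference ran from 0.04 to 0.96 for KO against WT in mock, from -1.20 to -0.66 after doxorubicin, from 3.30 to 4.16 for doxorubicin in WT, from 1.87 to 2.70 in KO and from -1.89 to -0.97 for the interaction. Signs changed for CEBPB in mock (-0.21 to 0.18, and 0.019 with the block and without replicate 3), PPARG in mock (-0.38 to 0.054) and the CEBPG interaction (-0.15 to 0.10, and 0.044 with the block and without replicate 3). Genes called ran from 3870 to 4839 for doxorubicin in WT and from 2546 to 3699 in KO. CEBPA in mock and PPARG have no value under the minimum mean of 10 CPM, and the 2 count models planned on recovered reads were not run. At the depth of these libraries, PPARG and CEBPA in mock rest on few reads, down to 36.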
